A study of Arabidopsis thaliana with 15 samples.

Results

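A set of 52 Arabidopsis genes was expressed above every other sorted population in both early and middle precursors of the stomatal lineage. It was taken from 12783 probe sets that the array annotation lists to 1 gene, out of 20956 in the table. A gene belonged to the set when its early and middle group means were both at least 1 log2 unit above the epidermis, late precursor and mature guard cell means, and lay less than 1.5 log2 units apart. Ribosomal protein genes were to be left out, and 0 met the criteria. The measured values chose these genes, so their height in early and middle precursors is a description here and carries no test.

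Stomata arise from epidermal cells that divide asymmetrically to give meristemoids. A meristemoid may repeat such divisions before it becomes a guard mother cell, which divides symmetrically into a pair of guard cells that then stop dividing. SPCH, MUTE and FAMA, related basic helix-loop-helix transcription factors, act in this order. Each division needs a spindle, a checkpoint that holds chromosome separation until the spindle has attached, and a phragmoplast, the plant structure that lays down the new wall.

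RNA was measured on ATH1 arrays from protoplasts sorted by fluorescence, with 3 arrays in each of 5 populations. The protoplasts came from rosettes of 14-day-old seedlings, all in the Col background. All samples shared growth at 25 C with 16 h light, 8 h dark and 1% sucrose, and a digestion of 2 h. Early precursors, labelled as young meristemoids and their mother cells, carried SPCHp::SPCH-YFP, and middle precursors (older meristemoids and new guard mother cells) carried MUTEp::nucGFP. Late precursors (guard mother cells near division and young guard cells) carried FAMAp::GFP-FAMA, mature guard cells carried the E1728::GFP enhancer trap, and the whole epidermis carried ML1p::YFP-RCI2A. Because every population comes from a different reporter line, effects of line and of stage cannot be told apart. Values are log2 expression after RMA, a standard background correction, normalization and summary of Affymetrix probes. Group means no higher than 2.68, the top array median, were taken as near background, a bound chosen after the data were seen. For folds, arrays of the lower population were first raised to at least 2.68, and a fold that this changed is written "at least". The labels do not say whether replicates came from separate plants or cultures, so p-values measure only the spread between these samples.

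The genes behind the early, middle and late reporters were read in each sort. SPCH averaged 9.11 ± 0.10 (SD, n = 3) in the early sort, 4.10 ± 0.63 in middle precursors and 2.31 ± 0.09 in late precursors, against 2.27 ± 0.20 in the epidermis. In mature guard cells SPCH averaged 2.52 ± 0.31. FAMA, listed under the symbol FMA, averaged 2.29 ± 0.38 in early, 6.64 ± 0.25 in middle and 10.11 ± 0.26 in late precursors, against 3.19 ± 0.18 in the epidermis. Its mature guard cell mean was 7.23 ± 0.30, above the middle one, so FAMA does not mark the late sort alone. The SPCH-YFP and GFP-FAMA transgenes can add to these signals in their own sorts. MUTE was near background in all 5 groups, with 2.37 ± 0.43 in middle precursors as its highest mean. Its measured difference there from the epidermis was 0.77 (SE 0.20, limma adjusted p = 0.0386), with both means at or below 2.68, so no fold is given. The early arrays varied most: their residual SD over all probe sets was 0.658, against 0.282 in middle precursors and at most 0.383 elsewhere.

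Of the 52 genes, 15 have a symbol in the reference tables and 37 have only a locus code, to which no role is given here. Over all probe sets listed to 1 gene and found in those tables, 1519 of 12720 have such a symbol. By role, 9 of the 15 serve cell division: 4 belong to the spindle checkpoint or are mitotic kinases, and 5 act on microtubules, chromosomes or mitotic protein turnover. Another 4 act on the cell wall or on growth outside the cell, 1 is a regulator of the stomatal lineage, and 1 is an enzyme of flavonol metabolism. These roles were assigned after the genes were known. No share of such roles was counted over all probe sets, so the counts are not read as an excess. In bulk samples, fewer cells of a type and less RNA per cell cannot be told apart, and this holds for every level below.

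Each gene had a margin, the lower of its early and middle means minus the highest of the 3 other means. The margin ranged from 1.02 to 2.61 log2 units, with a median of 1.39. In 36 of the 52 genes all 6 early and middle arrays lay above all 9 others, a pattern that 0.902% of all probe sets showed. The rule used these values, so the gap follows from it in part. In 13 of the other 16 genes it was the early arrays alone that reached down among the other populations, in 2 the middle arrays alone, and in 1 both.

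**Figure D1:**
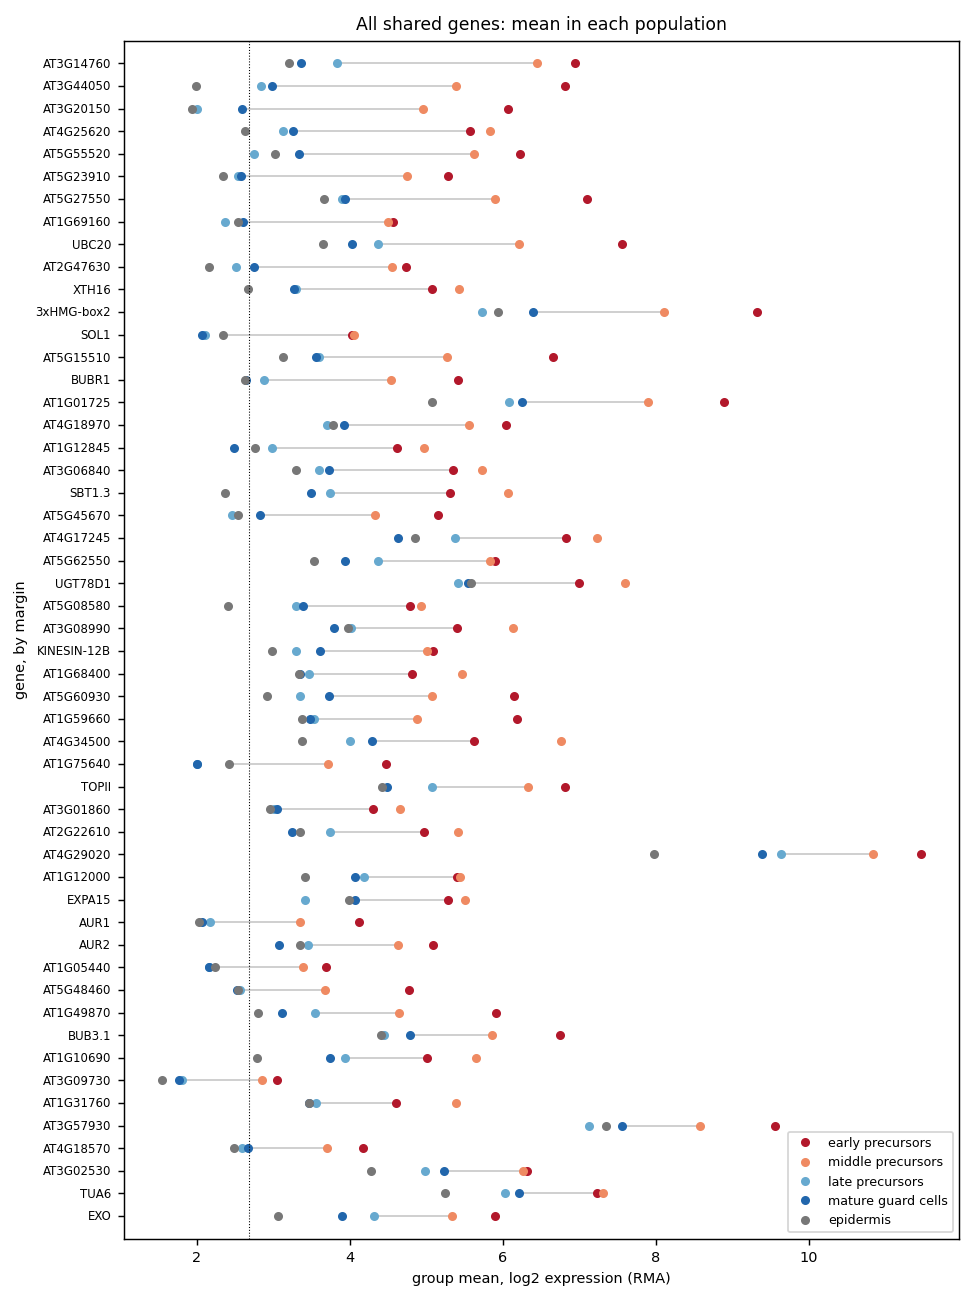
Mean log2 expression of each of the 52 genes in early precursors, middle precursors, late precursors, mature guard cells and the epidermis, ordered by margin. A grey line spans the margin of each gene, from 2.61 at the top to 1.02 at the bottom, and the dotted line marks 2.68.

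The spindle checkpoint genes were higher in early and middle precursors than anywhere else measured. BUBR1, a checkpoint protein of the kinetochore, stood at 3.38, 7.07 and 5.79 on the 3 early arrays and 4.98, 3.47 and 5.17 on the middle arrays. It stood at 2.98, 2.85 and 2.82 on the late arrays, 2.81, 3.1 and 2.01 on the mature arrays, and 2.72, 2.79 and 2.37 on the epidermis arrays. All early and middle arrays were above all others, although early array 1 and middle array 2 came close to them. Its partner BUB3.1 was far steadier: 6.42, 6.99 and 6.81 in early precursors and 5.91, 5.98 and 5.64 in middle precursors, against 3.99, 4.23 and 4.99 in the epidermis. BUB3.1 was 5.06-fold higher in early precursors and 2.72-fold higher in middle precursors than in the epidermis, with late (4.44 ± 0.11) and mature (4.78 ± 0.16) means near the epidermal one of 4.40 ± 0.52.

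AUR1 and AUR2 encode Aurora kinases, which act on the mitotic spindle and in plants help to set the plane of division. AUR1 stood at 4.84, 2.55 and 4.96 in early precursors and 4.48, 2.87 and 2.70 in middle precursors, and its late, mature and epidermis means (2.17, 2.07 and 2.02) were all near background. Of its 6 precursor arrays, 1 early and 2 middle ones were thus themselves close to 2.68, and the AUR1 fold in middle precursors over the epidermis was at least 1.6. AUR2 stood at 4.07, 6.29 and 4.89 in early precursors and 4.21, 4.56 and 5.14 in middle precursors, against 3.1, 3.67 and 3.26 in the epidermis. Its highest value in the 3 other populations was 3.84, on a mature guard cell array, below all 6.

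Among the chromosome and microtubule genes, 3xHMG-box2, a protein that binds mitotic chromosomes, had the least early spread of the 5: 9.32, 9.28 and 9.36, followed by 8.08, 7.90 and 8.32 in middle precursors. It stood at 6.33, 5.43 and 5.42 in late precursors, 6.15, 5.89 and 7.12 on the mature arrays and 5.74, 6.06 and 6.01 in the epidermis. Both precursor groups lay wholly above the rest, early above middle, at 10.4-fold and 4.49-fold over the epidermis. UBC20, a ubiquitin-conjugating enzyme related to those that drive turnover of mitotic cyclins, had the same order, with 7.48, 7.43 and 7.77 in early precursors and 5.87, 6.18 and 6.59 in middle precursors, against 3.1, 3.80 and 4.05 in the epidermis. That is 15.1-fold in early and 5.93-fold in middle precursors over the epidermis, with a margin of 1.86.

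KINESIN-12B, a motor of the phragmoplast, had means only 0.08 apart in the 2 stages: 5.25, 5.27 and 4.72 in early precursors and 4.93, 4.82 and 5.25 in middle precursors, against 3.07, 2.68 and 3.18 in the epidermis. The late arrays lay between 3.15 and 3.48 and the mature arrays between 3.54 and 3.73, so no array of another population reached the 6. TUA6, an alpha-tubulin, averaged 7.23 ± 0.90 in early and 7.31 ± 0.02 in middle precursors, against 5.24 ± 0.44 in the epidermis, with a margin of only 1.02. Early array 1 of TUA6, at 6.35, fell below mature array 3, at 6.56. Tubulin genes are similar in sequence, and cross-hybridisation between them was not tested.

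TOPII, the topoisomerase that untangles sister chromatids, stood at 7.04, 6.45 and 6.93 in early precursors and 5.98, 6.04 and 6.97 in middle precursors. It stood at 6.34, 4.68 and 4.19 in late precursors, 4.0, 4.68 and 4.79 on the mature arrays and 4.50, 3.38 and 5.38 in the epidermis. Late array 1 of TOPII thus exceeded a pair of middle arrays, and the late SD was 1.13, against 0.32 in early precursors.

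SOL1 (AT3G22760), a TSO1-like DNA-binding protein known in Arabidopsis for its part in stomatal lineage progression, was the 1 lineage regulator in the set. It stood at 4.03, 3.64 and 4.43 in early precursors and 4.42, 3.62 and 4.10 in middle precursors. On the 9 other arrays it ranged no higher than 2.55, and its late (2.11), mature (2.06) and epidermis (2.34) means were all near background. The early and middle means, 4.03 ± 0.40 and 4.05 ± 0.40, differed by -0.02, and each was at least 2.56-fold over every other population.

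The wall and growth genes had all 6 early and middle arrays above all 9 others in 4 of 4 cases, and 3 of the 4 had their higher mean in middle precursors. XTH16, an enzyme that cuts and rejoins wall xyloglucan, stood at 4.25, 4.74 and 6.21 in early precursors and 5.40, 5.71 and 5.17 in middle precursors, against 2.75, 2.41 and 2.81 in the epidermis. EXPA15, an alpha-expansin that loosens walls, stood at 6.22, 4.96 and 4.67 in early and 5.79, 5.24 and 5.46 in middle precursors, against 4.27, 4.02 and 3.68 in the epidermis. EXPA15 was lowest of all in late precursors, at 3.52, 3.31 and 3.40.

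SBT1.3, a subtilisin-like protease, was near background in the epidermis. It stood at 4.48, 6.0 and 5.46 in early and 6.35, 5.45 and 6.36 in middle precursors, against 2.06, 2.44 and 2.62 in the epidermis, at least 6.21-fold (early) and at least 10.4-fold (middle). Its late (3.74 ± 0.60) and mature (3.49 ± 0.40) means lay between. EXO, a brassinosteroid-responsive promoter of leaf growth, had means that fell along the lineage. They were 5.89 ± 0.71 in early, 5.33 ± 0.23 in middle and 4.32 ± 0.30 in late precursors. On the mature guard cell arrays the mean was 3.90 ± 0.45, against 3.06 ± 0.33 on those of the epidermis. Early arrays overlapped middle ones, and late arrays overlapped mature ones. The margin of EXO was 1.02.

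UGT78D1, which attaches rhamnose to flavonols, stood at 7.27, 6.13 and 7.61 in early and 8.47, 7.85 and 6.44 in middle precursors, against 5.81, 5.92 and 5.02 in the epidermis. Its groups overlapped: early array 2 lay below the mature array at 6.24. The late arrays (5.41, 5.46 and 5.35) lay within the range of the epidermis arrays.

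**Figure D2:**
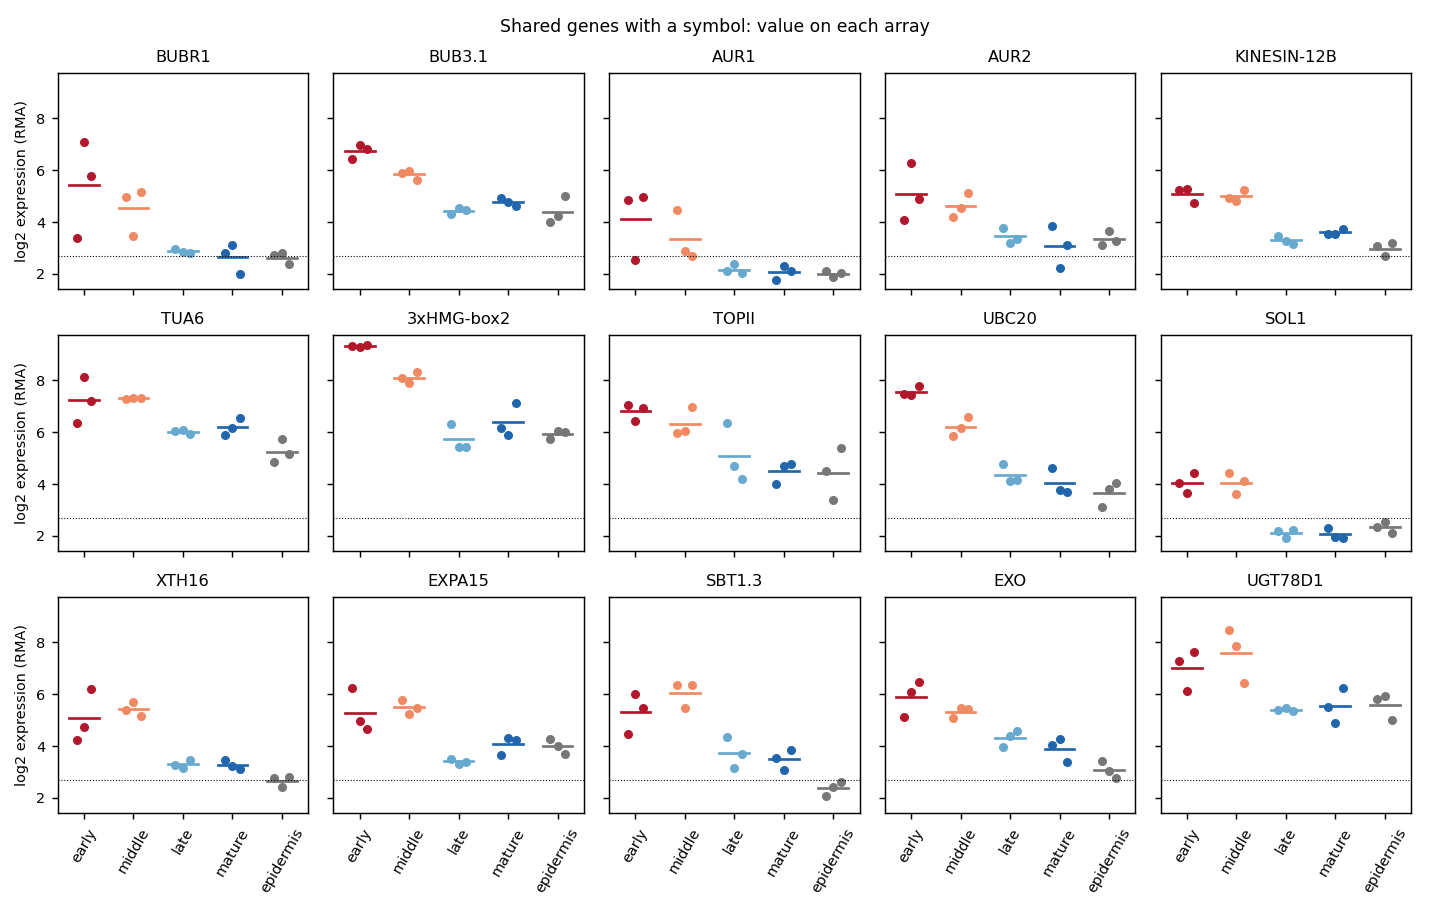
Log2 expression of the 15 genes with a symbol on each array, as points, with the group mean as a bar; the populations run from early precursors to mature guard cells and then the epidermis, and the dotted line marks 2.68. Early points scatter most in BUBR1 and AUR1 and least in 3xHMG-box2, and SOL1 lies below the line in all 3 other populations.

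Of the 15 genes with the greatest margin, 10 have only a locus code. AT3G14760 led them with a margin of 2.61: it stood at 7.56, 7.13 and 6.13 in early and 6.69, 5.73 and 6.89 in middle precursors, against 3.31, 2.48 and 3.81 in the epidermis, and at most 4.33 elsewhere. Its lowest precursor array was thus well clear of the rest, at least 12.7-fold (early) and at least 9.01-fold (middle) over the epidermis. AT3G44050 followed with a margin of 2.40, at 5.97, 7.12 and 7.34 in early and 4.79, 5.59 and 5.78 in middle precursors, against 2.47, 1.40 and 2.10 in the epidermis. AT3G20150 (margin 2.36, or 2.11 with each array of the other populations raised to at least 2.68) stood at 6.62, 6.10 and 5.47 in early and 4.69, 5.10 and 5.07 in middle precursors, and its other 3 means were near background. In both genes early and middle arrays lay above all others.

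AT4G25620 (margin 2.31) averaged 5.57 ± 0.63 in early and 5.83 ± 0.21 in middle precursors, against 2.63 ± 0.34 in the epidermis. AT5G55520 (margin 2.29) averaged 6.22 ± 0.94 in early and 5.62 ± 0.43 in middle precursors, against 3.02 ± 0.41 in the epidermis. AT5G27550 (margin 1.96) averaged 7.10 ± 0.58 in early and 5.90 ± 0.25 in middle precursors, against 3.66 ± 0.16 in the epidermis. All 3 had no overlap with other populations. AT5G23910 (margin 2.17, or 1.95 with the arrays so raised) and AT1G69160 (margin 1.90, or 1.79) were near background in late precursors, mature guard cells and the epidermis alike. AT2G47630 (margin 1.82) was split in early precursors, at 3.05, 5.94 and 5.22, and AT5G15510 (margin 1.68) still more so, at 4.03, 8.45 and 7.48. Early array 1 of AT5G15510 lay below the late array at 4.22 and the epidermis array at 4.07, so its groups overlapped.

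In 10 of the 52 genes, AUR1, SOL1 and 8 locus codes, all 3 other populations were near background, so their measured margins rest on values with no reliable order. With each array of the other populations raised to at least 2.68, the margin fell below 1 in 5 of the 10: to 0.68 in AUR1, 0.70 in AT1G05440, 0.97 in AT5G48460, 0.17 in AT3G09730 and 0.88 in AT4G18570. In 33 genes none of the 3 was, so most of the set had means above 2.68 in late precursors, mature guard cells and the epidermis too. Late precursors had the highest of the 3 other means in 24 genes, mature guard cells in 24 and the epidermis in 4, while the epidermis had the lowest in 34.

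Taken array by array, the median over the 52 genes was 5.18, 6.07 and 5.83 in early precursors, 5.35, 5.33 and 5.42 in middle precursors, 3.63, 3.46 and 3.38 in late ones, and 3.54, 3.34 and 3.53 on the mature guard cell arrays, against 3.07, 3.31 and 2.99 on those of the epidermis. The rule itself set the gap of both the early and the middle arrays over those of the 3 other populations. Early array 1 was the lowest early array in 27 genes, array 2 in 16 and array 3 in 9. Over all probe sets these shares were 29.1%, 33.0% and 37.9%. The median SD of the 52 genes was 0.80 in early precursors and 0.35 in middle precursors, where all probe sets had medians of 0.32 and 0.18.

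The difference between the early and middle means was bounded by the rule and is given without a test. The early mean was the higher in 33 genes and the middle mean in 19. The share of all probe sets with the higher mean in early precursors was not counted. Over all probe sets, 57.8% of early and 44.3% of middle differences from the epidermis were positive. Neither these counts nor those by role below are therefore read as a trait of the genes. All early arrays lay above all middle arrays in 10 genes, where 19.2% of all probe sets did so, and the reverse held in 1 gene, against 12.1% of all probe sets.

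All 4 checkpoint and kinase genes had the higher mean in early precursors, with a median early minus middle difference of 0.82 (0.90 for BUB3.1, 0.87 for BUBR1, 0.77 for AUR1 and 0.45 for AUR2). Of the 5 microtubule, chromosome and turnover genes, 4 did, led by UBC20 at 1.35 and 3xHMG-box2 at 1.22. The exception was TUA6 at -0.08. Over these 9 genes the median was 0.77.

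The wall and growth genes had more of their higher means in middle precursors, with a median of -0.28: SBT1.3 at -0.75, XTH16 at -0.36, EXPA15 at -0.21 and EXO at 0.56. UGT78D1 was at -0.58. The 37 locus codes had a median of 0.31, and 24 of them were higher in early precursors. The greatest early excess was that of AT3G44050 (1.42) and AT5G15510 (1.38), and the greatest middle excess that of AT4G34500 (-1.14) and AT1G31760 (-0.79). AT4G34500 stood at 5.97, 4.50 and 6.39 in early and 6.40, 6.70 and 7.17 in middle precursors, so every middle array was above every early one.

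**Figure D3:**
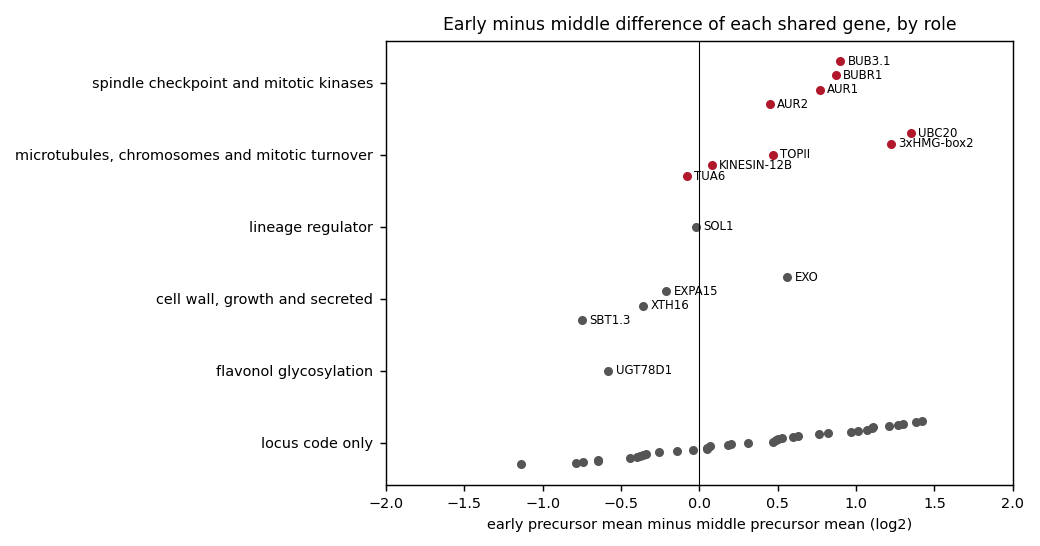
Early precursor mean minus middle precursor mean (log2) for each of the 52 genes, grouped by role, with the 9 division genes in red. Of the 9, 8 lie right of 0, and of the 4 wall and growth genes 3 lie left of it.

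The rule capped the late, mature and epidermis means of these genes alike but did not set their order, so the differences among these 3 populations were tested within that cap. In late precursors against the epidermis, 3 of the 52 genes were higher and 0 were lower by limma's moderated test (adjusted p under 0.05), where 4.75% of all probe sets were called higher and 3.26% lower. At an unadjusted p under 0.05, 11 were higher and 0 lower, where 11.9% of all probe sets were higher. The median difference over the 52 was 0.26 log2 units, against -0.06 over all probe sets, and 41 of 52 differences were positive, against 42.9% of all probe sets. The share called, 5.8%, was near the background share.

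AT4G29020, a locus without a symbol, was the steadiest of these calls. It stood at 11.09, 11.80 and 11.52 in early precursors, 10.87, 10.82 and 10.84 in middle precursors, 10.09, 9.33 and 9.46 in late precursors and 9.63, 9.43 and 9.10 on the mature guard cell arrays, against 7.48, 8.36 and 8.08 on those of the epidermis. No late or mature array overlapped the epidermis. The late difference was 1.65 (SE 0.26, limma adjusted p = 0.00258), with adjusted p between 0.000369 and 0.0185 over 23 alternative settings.

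AT5G08580 stood at 3.43, 3.18 and 3.25 on the late arrays and 3.24, 3.43 and 3.47 on the mature guard cell arrays, against 2.28, 2.74 and 2.20 on those of the epidermis. Both groups lay wholly above the epidermis, whose mean was near background. The measured late difference was 0.88 (SE 0.17, limma adjusted p = 0.00733). EXO stood at 3.98, 4.38 and 4.58 in late precursors, against 3.41, 3.03 and 2.75 in the epidermis, a difference of 1.25 (SE 0.33, limma adjusted p = 0.0374). The EXO call was lost under 9 of 23 alternatives, with adjusted p up to 0.141: cyclic loess (0.0832), an intensity trend (0.0514), late arrays 2 and 3 averaged (0.126), and without middle array 2 (0.0515) or 3 (0.0535), late array 2 (0.116) or 3 (0.138), or epidermis array 2 (0.0759) or 3 (0.141).

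In mature guard cells against the epidermis, 2 of the 52 genes were higher and 0 lower, where 2.29% of all probe sets were called higher and 1.62% lower. The median difference was 0.28, against -0.06 over all probe sets, and 41 of 52 were positive, against 44.0% of all probe sets. At an unadjusted p under 0.05, 11 were higher and 0 lower, where 9.6% of all probe sets were higher. AT4G29020 was higher by 1.41 (limma adjusted p = 0.0117), a call lost without mature array 1 (0.0578). AT5G08580 was higher by 0.97 (limma adjusted p = 0.00841), a call lost when only mature guard cells and epidermis entered the fit (0.0512). The count of 2 became 4 without early array 2 or 3, and 1 without mature array 1.

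In mature guard cells against late precursors 0 of the 52 genes were called by limma, with 1 higher and 1 lower at an unadjusted p under 0.05, where 0.0668% of all probe sets were called higher and 0.0716% lower and 3.4% were higher at the unadjusted level. The median difference was -0.01, the same as over all probe sets, and single genes ranged from -0.74 to 0.65. The division genes showed 0 calls in any of the 3 comparisons. Their late differences from the epidermis ran from -0.21 (3xHMG-box2) to 0.78 (TUA6), with BUBR1 at 0.26. In mature guard cells they ran from -0.28 (AUR2) to 0.96 (TUA6), with BUBR1 at 0.01. SOL1 was near background in all 3 populations.

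**Figure D4:**
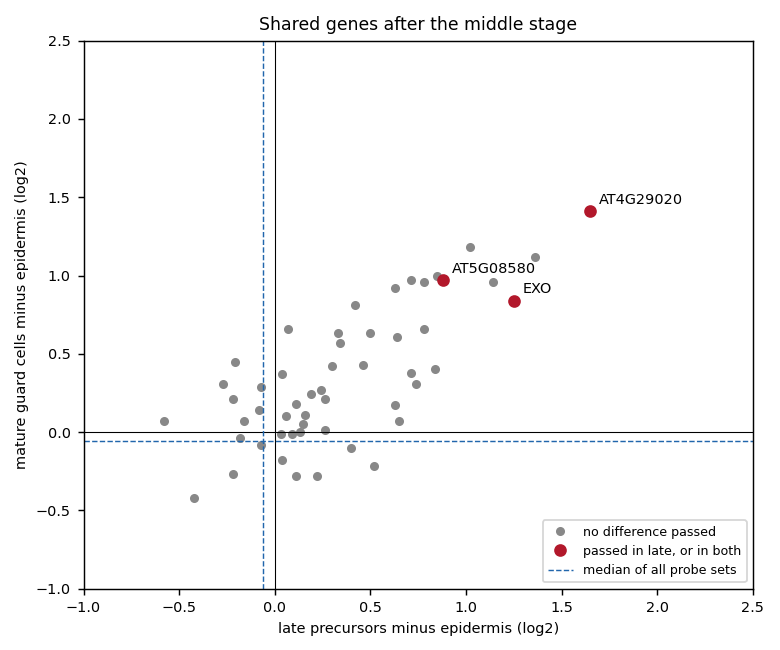
Late precursor minus epidermis difference (x axis, log2) against mature guard cell minus epidermis difference (y axis, log2) of the 52 genes, with dashed lines at the medians of all probe sets (-0.06 on both axes). The axes share the epidermis arrays. AT4G29020 and AT5G08580 passed the test in both comparisons and EXO in late precursors.

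For the rule's own contrasts, 43 of the 52 genes would pass the same threshold in early precursors against the epidermis and 37 of 52 in middle precursors, where 3.4% and 3.24% of all probe sets were called higher. Nothing is read from these counts. The remaining members miss the threshold although their means met the rule.

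Genes of the same functions that are not in the set were also compared with the epidermis. The 4 lists, made from gene names, hold 80 such probe sets. The rule used these same contrasts and had taken out list genes that were high in both precursor groups. Counts and medians of the remainder are therefore not like for like with those of all probe sets, and no conclusion is drawn from them. In early precursors 5 of the 80 were called, 3 higher and 2 lower, where 8.91% of all probe sets were called and 5.51% were called lower. In middle precursors 5 were called, 3 higher and 2 lower, where 5.52% of all probe sets were called and 2.29% were called lower. Leaving out 1 array moved the early count to between 3 (without epidermis array 1 or 2) and 9 (without early array 2 or 3). The middle count fell to 1 without middle array 3 or epidermis array 3, 2 without epidermis array 1 and 3 without middle array 1. The early and middle comparisons share the epidermis arrays.

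The mitosis and cytokinesis list had 8 measured genes, 4 of them in the set (AUR1, AUR2, 3xHMG-box2 and KINESIN-12B). The other 4 had 0 calls by limma in either comparison (1 and 0 higher and 0 lower at an unadjusted p under 0.05 in early and middle precursors), with median differences of 0.84 in early and 0.39 in middle precursors. Over all probe sets the medians were 0.07 and -0.05. AUR3, the third Aurora kinase, averaged 3.38 ± 1.75 in early and 2.60 ± 0.28 in middle precursors, against 2.10 ± 0.12 in the epidermis. 3xHMG-box1, the close relative of 3xHMG-box2, averaged 4.23 ± 1.58 in early and 2.77 ± 0.62 in middle precursors, against 2.45 ± 0.01 in the epidermis (limma adjusted p = 0.0748 and 0.796). Early spread was wide in both. The remaining genes of the list, KINESIN-13A and HTR12, differed from the epidermis by 0.06 and 0.42 in early precursors. In middle precursors they differed by 0.47 and -0.32.

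None of the 5 measured genes of the DNA replication and histone list was in the set. HTB2, a histone H2B, rose in middle precursors by 2.40 over the epidermis (SE 0.35, limma adjusted p = 0.00219), and the call held under all 23 alternatives. HTB2 averaged 5.32 ± 0.76 in early and 6.99 ± 0.31 in middle precursors, against 4.59 ± 0.27 in the epidermis, and its early difference of 0.73 had an adjusted p of 0.237. The other 4 had 0 calls in early or middle precursors. Of 15 chromatin and DNA methylation probe sets outside the set, CHR23, a chromatin remodelling ATPase, was higher in early precursors by 3.65 (SE 0.82, limma adjusted p = 0.0153). That call was lost with only the 2 groups in the fit (0.16), with array weights (0.0573) and without epidermis array 3 (0.056), and the CHR23 difference in middle precursors was 0.19.

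The cell wall and surface list had 58 probe sets outside the set, with 2 higher and 2 lower in each comparison, and its medians (0.03 early, -0.08 middle) were near those of all probe sets. EXPB3, a beta-expansin, was higher in early precursors by 3.92 (SE 0.65, limma adjusted p = 0.0025; 0.101 with only the 2 groups in the fit). It averaged 6.65 ± 1.72 in early and 3.92 ± 0.67 in middle precursors, too far apart for the set. GH9B7, a glycosyl hydrolase, had a measured early difference of 1.18 over an epidermis mean near background (limma adjusted p = 0.0441). Its call was lost under 15 of 22 alternatives, with adjusted p up to 0.269. Among these were single arrays left out: early 1 (0.0536) or 2 (0.123), middle 1 (0.0583) or 3 (0.06), late 2 (0.064) or 3 (0.0588), mature 1 (0.0596), 2 (0.0602) or 3 (0.0556), and epidermis 1 (0.081) or 2 (0.171).

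EXLA1, an expansin-like gene, differed by -2.43 in early precursors (limma adjusted p = 0.0177), and CSLD2, a cellulose synthase-like enzyme, by -1.06 (0.0227). EXLA1 averaged 2.75 ± 0.30 in early and 5.08 ± 0.41 in middle precursors, against 5.18 ± 1.26 in the epidermis. It lost its call with only the 2 groups in the fit (0.147), with array weights (0.0889) and without epidermis array 1 (0.0502) or 2 (0.0689). CSLD2 lost its call under 7 of 22 alternatives, among them without early array 1 (0.0619) or epidermis array 1 (0.0843) or 2 (0.0832).

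In middle precursors EXPA9, another alpha-expansin, was higher by 1.74 (limma adjusted p = 0.0234). It averaged 3.20 ± 0.57 in early and 4.75 ± 0.71 in middle precursors, against 3.00 ± 0.57 in the epidermis, and lost its call without middle array 1 (0.0752) or 3 (0.103) or epidermis array 1 (0.0812) or 3 (0.087). AT5G61590 had a measured middle difference of 1.35 over an epidermis mean near background (limma adjusted p = 0.0276), lost without middle array 3 (0.116) or epidermis array 1 (0.0981) or 3 (0.0609). EXPA18 was near background in middle precursors, with a measured difference of -1.13 (limma adjusted p = 0.0128). That call was lost with only the 2 groups in the fit (0.0635) and without middle array 3 (0.0588) or epidermis array 3 (0.0564). The fourth called gene of the cell wall and surface list, AT4G02300, was near background in both groups (limma adjusted p = 0.0474). It lost its call under 16 of 22 alternatives, including every fit that left out 1 middle or 1 epidermis array (0.0562 to 0.174).

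Relatives of the named genes, gathered by symbol after the set was known, were tested in the same way, again without the members of the set. The same limit holds for them: the rule used these contrasts and had taken out relatives that met it. Their differences and p-values are thus given as description, and no conclusion is drawn from them. TUB7, a beta-tubulin, came closest among the tubulins: it averaged 5.90 ± 0.67 in early and 5.01 ± 0.02 in middle precursors, against 2.79 ± 0.20 in the epidermis. Its differences of 3.11 (SE 0.31, limma adjusted p = 6.78e-05) and 2.22 (SE 0.31, limma adjusted p = 0.0015) held under every alternative run. TUB7 stayed outside the set because its mature mean was 4.28 ± 0.27, which left a margin of 0.73. TUB5 and TUB6 were lower in early precursors, with differences of -1.21 (limma adjusted p = 0.0333) and -1.17 (0.0042). The TUB5 call was lost under 7 of 22 alternatives, among them without early array 1 (0.0761) or 2 (0.0677) or epidermis array 2 (0.135) or 3 (0.099). The TUB6 call, whose early mean of 2.41 was near background, was lost with only the 2 groups in the fit (0.108) and with array weights (0.0529). The other alpha-tubulin measured, TUA1, differed by -0.90 in early precursors (0.0686).

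Among 11 other ubiquitin-conjugating enzymes, UBC22 was higher in early precursors by 3.00 (SE 0.46, limma adjusted p = 0.00151), with no call lost in 22 alternatives. UBC22 averaged 7.19 ± 0.32 in early and 5.90 ± 0.16 in middle precursors, against 4.19 ± 0.89 in the epidermis. The call on its middle difference of 1.72 (limma adjusted p = 0.0479) was lost under 15 of 23 alternatives, including the replicate block (0.0706) and 11 of the fits that left out 1 array (0.0502 to 0.164). UBC27 was higher in middle precursors by 1.41 (limma adjusted p = 0.0373) and differed by -0.16 in early ones. Its call was lost under 10 of 23, including the replicate block (0.0616) and any 1 of the middle or epidermis arrays left out (0.0561 to 0.137). UBC19, a close relative of UBC20, stood at 4.41 ± 0.30 in early and 4.64 ± 0.07 in middle precursors, against 4.38 ± 0.70 in the epidermis, differences of 0.03 and 0.26.

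The 8 other XTH genes, 6 other subtilases, BUB3.2, AUR3, KINESIN-13A, TSO1, UGT78D2, UGT78D3 and TOP3A had 0 calls by limma in either comparison. At an unadjusted p under 0.05, 3 XTH genes were higher and 2 lower in early precursors and 1 was lower in middle ones. At the same level 1 subtilase was lower in each comparison, and BUB3.2 and TSO1 were higher in early precursors. BUB3.2 was near background in every group, against the 5.06-fold early excess of BUB3.1.

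**Figure D5:**
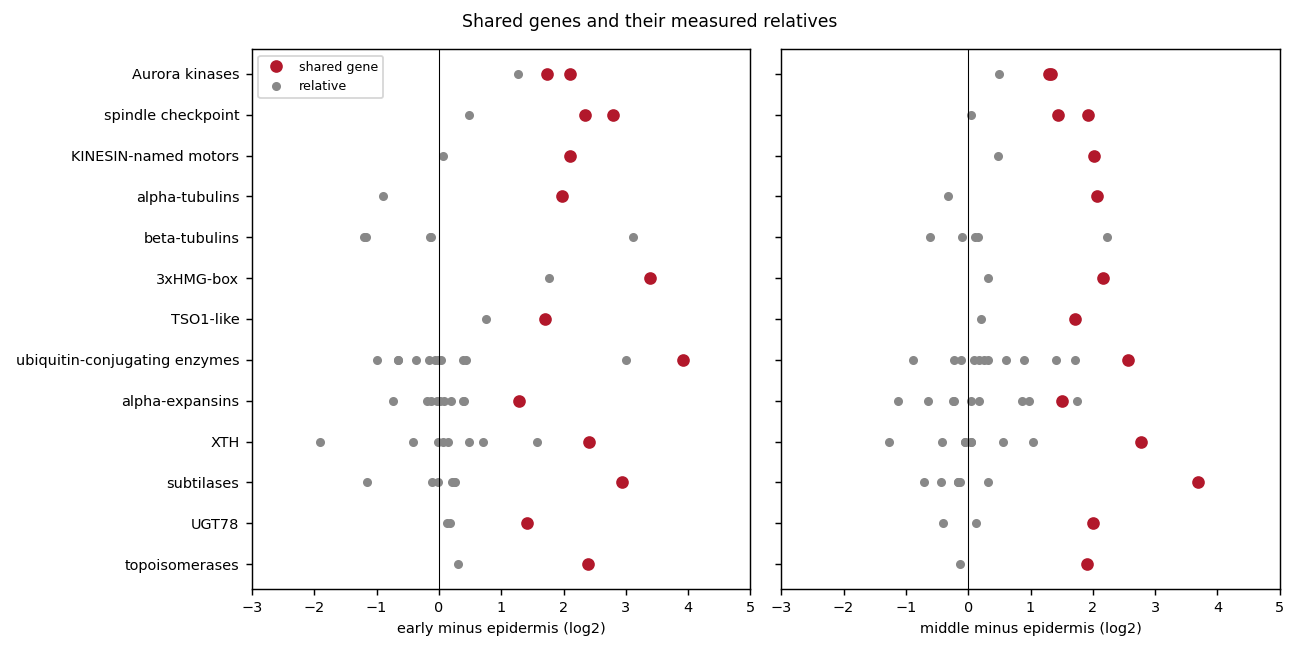
Difference from the epidermis (log2) in early precursors (left) and middle precursors (right) for the named genes of the set (red) and their measured relatives (grey), 1 row per family. TUB7 at 3.11 and 2.22 and UBC22 at 3.00 and 1.72 are the grey points that lie far to the right in both panels, and most others lie near 0.

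Summed markers of other cells differed between the sorts. The summed linear signal of 6 photosynthesis genes (RCA, PSBY, PSBW and LHCB4.1 to LHCB4.3) was 831 to 1746 in early precursors, 930 to 1099 in middle precursors, 527 to 1011 in late precursors and 965 to 1676 on the mature guard cell arrays, against 2610 to 5395 on those of the epidermis. All 4 lineage sorts lay below the epidermis in this sum. Not every gene in it did: LHCB4.3 averaged 4.55 in middle and 4.52 in late precursors, against 4.38 ± 0.86 in the epidermis. The trichome gene TRY summed to between 5 and 98 in early precursors and 3 to 6 elsewhere. PHV, the only gene measured on the vascular list, was near background in every group and so gives no measure of vascular cells. The 18 wound or protoplasting genes summed to 2408 to 3112 in early, 2823 to 3431 in middle, 1874 to 2508 in late precursors and 2435 to 2696 on the mature guard cell arrays, against 2853 to 3655 on those of the epidermis. Guard cell markers (CHX20, AT1G22690 and AT4G14480, the last near background in every group) summed to 36 to 218 in early and 106 to 351 in middle precursors and to 1170 to 1967 in late precursors and 1248 to 1363 on the mature guard cell arrays, against 137 to 185 on those of the epidermis. The part of these cells in the levels of the 52 genes was not tested.

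The border of the set was not sharp. Just inside the margin threshold of 1 lay AT3G02530 (1.03), TUA6 (1.02) and EXO (1.02), and just outside it AT3G08680 (0.99), AT3G07110 (0.98) and AT5G50890 (0.98). At the limit on the early minus middle difference, AT3G44050 (1.42), AT5G15510 (1.38) and UBC20 (1.35) were inside, and AT4G29030 (1.52), AT5G50740 (1.58) and NET3A (1.70) outside. In all, 13 probe sets of 1 gene cleared the margin but were at least 1.5 apart, and in all 13 the early mean was the higher. A further 47 probe sets met the value criteria but have no gene listed, and 1 has several.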

How the data were processed

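Each of the 15 arrays gives 1 log2 expression value per probe set, made by the authors. Per the submitters' processing notes they used RMA and affy, with no version named. That the base is 2 is inferred from RMA and from values that run from 1.11 to 13.4. Each replicate held 2000 to 20000 sorted cells and its RNA was amplified before labelling, per the labels' protocols. No genome build is given in the sources used here, so no coordinates or sequences are printed.

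Group means of the deposited log2 values chose the 52 genes. The members, lists and tests were chosen with earlier results of these data known. Over all 20956 probe sets and 15 arrays, limma 3.58.1 under R 4.3.3 fitted a mean for each group (10 residual degrees of freedom). The spread of each probe set was pooled over all groups. P-values are two-sided, with Benjamini-Hochberg adjustment per comparison and a threshold of 0.05. Errors of levels are SDs of 3 arrays and errors of differences are model SEs. The number of arrays limits the precision. Linear marker sums add 2 to the power of each value.

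Named were the 15 genes with the greatest margin, the 3 nearest inside and outside the margin threshold, every called member, up to 6 members per role, up to 3 called list genes per list and comparison, SPCH, MUTE and FAMA, and the 2 extremes of early minus middle in each direction. CSLD2 and AT4G02300, which complete their counts of 4 called genes, were added after their values were seen. So were family members, HTR12, the genes at the 1.5 limit and TUA1, UBC19 and other relatives without a call. Other lists made from name patterns, such as transcription factors and receptor kinases, caught unrelated names and were not used. Symbols come from the probe annotation and a RefSeq gene table, in which all 52 loci were found. The fit was tested on simulated data. Alternatives were cyclic loess, median centring, group medians, a filter on low values, fewer groups in the fit, array weights, an intensity trend, a replicate block, late arrays 2 and 3 averaged (their r was 0.994), a margin of 1.5 and leaving out each array.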

Additional observations from a re-analysis of the deposited data

How the results depend on the processing

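None of the called differences of single genes in the tested comparisons changed sign under the alternatives run; the early minus middle differences and the differences without a call were not refitted. A margin of 1.5 in place of 1 left 21 of the 52 genes. Cyclic loess gave 55 genes (44 shared with the 52), median centring 48 (47 shared), group medians 53 (37 shared) and late arrays 2 and 3 averaged 49 (48 shared). Leaving out 1 array gave 47 to 63 genes, and 20 of the 52 were in the set each time. Members called in late precursors against the epidermis numbered 5 with only the groups compared, 7 without the early arrays and 9 with array weights, against 3 as reported, and 2 to 4 with 1 array left out. In mature guard cells against the epidermis they numbered 7 without the early arrays and 5 with array weights, against 2 as reported. With 1 array left out they numbered 1 to 4 (4 without early array 2 or 3, 1 without mature array 1). In mature guard cells against late precursors array weights gave 2, AT4G17245 at -0.82 and EXPA15 at 0.77, against 0 as reported, and leaving out any 1 array gave 0. List genes called in early precursors numbered 8 with a filter on low values, 0 with only the groups compared, 1 with array weights and 8 with an intensity trend, against 5 as reported. With 1 array left out they numbered 3 to 9 (9 without early array 2 or 3, 3 without epidermis array 1 or 2). In middle precursors they numbered 12 without the early arrays and 8 with array weights, against 5 as reported, and 1 to 7 with 1 array left out (3 without middle array 1, 1 without middle array 3, 2 without epidermis array 1, 1 without epidermis array 3). The causes were not tested. The replicate numbers showed no clear pairing of the samples, but this check cannot exclude one. Over 30 same-number pairs the correlation of deviations ranged from -0.105 to 0.168, and 3 were over 0.1. The median was 0.0037, against -0.0031 for pairs with other numbers. Of the 15 arrays, 7 correlated best with their own number. With the replicate number as a block, members called were 3, 2 and 0 and list genes called 5 and 5, the same counts as without it. The block ended the calls of GH9B7 in early precursors and of AT4G02300, UBC22 and UBC27 in middle precursors. Genes near 2.68 have no measured fold. The reported fit pooled the spread of each probe set over all groups, so the wide early spread entered the error of every comparison. On the whole the pooled spread was smaller than the early one and larger than those of the other populations. Errors of early differences were thus on the whole too small, and errors of differences without early arrays too large.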
